A study of Rattus norvegicus with 66 samples.

Results

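Male pups that had been exposed to Aroclor 1254 were compared directly with male pups exposed to bisphenol A, both at 0.5 mg/kg per day. The comparison takes the 8 libraries of the groups Aro0.5 (4 pups) and BPA0.5 (4 pups), out of 66 libraries of 64 pups in the whole series, and has no control in its fit. All 8 libraries carry pup names that end in a capital Y, so that they belong to a single set of library names. In the study, gene expression of the developing hippocampus was measured by RNA-seq after exposure to 3 endocrine disrupting chemicals at a low and a high dose. Chlorpyrifos, the remaining chemical, was injected into the dams, and its low-dose males (CPF1) enter only an alternative fit. All pups were Long Evans rats, and tissue was taken on postnatal day (PND) 6. Aroclor 1254 and bisphenol A were mixed into soy-free chow of the dams from 2 weeks before mating through pregnancy and lactation until PND 6. The pups thus received them through the dam. The number before the hyphen of the pup name, read here as that of the dam, differs among all 8 pups. On this reading, no litter is present more than once. The tissue was dorsal hippocampus together with a small part of the neocortex lateral to it, cut from a frozen slice, and therefore a mixture of cell types. In such bulk tissue, fewer cells of a type and less RNA per cell cannot be told apart.

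Aroclor 1254 is a technical mixture of polychlorinated biphenyls. Some of its congeners and their hydroxylated products are known to lower circulating thyroid hormone, others act on ryanodine receptors or on the aryl hydrocarbon receptor. Bisphenol A, a plasticizer, is best known as a weak ligand of estrogen receptors and a ligand of estrogen-related receptor gamma. In the first postnatal week the rat hippocampus is still forming granule cells, interneurons are settling, and GABA is shifting from a depolarizing to a hyperpolarizing transmitter as the chloride exporter Slc12a5 (KCC2) replaces the importer Slc12a2 (NKCC1).

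Total counts were 24689291 to 32005323 in the Aro0.5 libraries and 10644138 to 25719035 in the BPA0.5 libraries, and the 3 shallowest libraries were all BPA0.5. Dissection took place between 10.28 and 12.15 h. Of the variance of log2 CPM (counts of a gene per 1000000 counts of the library), the first principal component held 40% and the second 19.6%. On the first, Aro0.5 pups lay between -32.1 (98-8Y, the deepest library) and -3.21. BPA0.5 pups lay between -15.7 (73-4Y) and 48.8 (72-4Y, the shallowest library), with 69-4Y at 23.4 and 75-1Y at 1.63. The part of depth in this component was not tested. On the second component, BPA0.5 73-4Y stood apart at -42.2, whereas the other 7 pups lay between -0.914 and 14.6. This pup also had a lower mean correlation with its own group (0.9782) than with the Aro0.5 pups (0.9841), and the same was true of BPA0.5 75-1Y (0.9853 and 0.9902). The Y-linked genes Kdm5d (25.7 to 42.1 CPM) and Eif2s3y (74 to 101 CPM) were present in all 8 libraries. Of 12 hippocampal subfield markers, 11 had counts, with Prox1 of the granule cells at 77.4 to 153 CPM, and Fibcd1 was at 0 counts in every library.

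Values per pup are given below in a fixed order, for Aro0.5 as pups 105-5Y, 106-3Y, 94-3Y and 98-8Y and for BPA0.5 as pups 69-4Y, 72-4Y, 73-4Y and 75-1Y. Log2 fold changes are Aro0.5 minus BPA0.5 with their standard error (SE), from edgeR's quasi-likelihood test with 4 pups a group. In this test, 0 of 16203 genes (0%) reached an adjusted p under 0.05 after Benjamini-Hochberg adjustment, and the smallest adjusted p in edgeR was 0.431. At an unadjusted p under 0.05 there were 1516 genes (9.36%), of which 808 (4.99%) were higher and 708 (4.37%) lower in Aro0.5. In 558 genes (3.44%) the CPM values of the groups did not overlap. This count was about 3390 without BPA0.5 73-4Y, 1590 without BPA0.5 75-1Y, 1440 without Aro0.5 105-5Y and 1180 without Aro0.5 106-3Y. Leaving out any of the other pups gave 718 to 819. DESeq2, the tool of the study, gave 21 genes with an adjusted p under 0.05 out of 15891 with an adjusted p (0.132%), 14 higher and 7 lower in Aro0.5, and limma-voom gave 0. With all 8 pups, limma-voom with sample quality weights gave 4680 genes (28.9%) at an unadjusted p under 0.05. In edgeR, single pups strongly moved this number. Without BPA0.5 73-4Y it was 4282, and without Aro0.5 94-3Y, Aro0.5 98-8Y, BPA0.5 69-4Y or BPA0.5 72-4Y it was 839, 791, 813 and 757. The DESeq2 count was 1203 without BPA0.5 73-4Y, 158 without BPA0.5 75-1Y, 52 without Aro0.5 105-5Y and 49 without Aro0.5 106-3Y. It was 12 without BPA0.5 72-4Y, 3 without Aro0.5 94-3Y or BPA0.5 69-4Y, and 2 without Aro0.5 98-8Y.

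The 20 named genes with the smallest unadjusted p are described first, as values, since none of them passed the adjusted threshold of edgeR (adjusted p 0.431 to 0.526, Benjamini-Hochberg). Of these, 13 were higher and 7 lower in Aro0.5. In 17 the groups did not overlap (3.44% of all genes), and 16 were among the 21 genes called by DESeq2. Since the 20 were chosen by their p in these same libraries, both counts are a description only. The largest difference was that of Calcr, the calcitonin receptor. It had 2.77, 2.07, 2.96 and 0.781 CPM in Aro0.5 against 7.74, 12.4, 22.4 and 9.41 CPM in BPA0.5. Every Aro0.5 pup thus lay below every BPA0.5 pup, the log2 fold change was -2.58 (SE 0.40), a 5.97-fold difference, and DESeq2 gave an adjusted p of 0.00376. Levels in control males of the same set of library names (4 from dams on vehicle chow and 5 from dams injected with vehicle) are given beside some genes. These 9 males ranged from 0.819 to 22.7 CPM for Calcr, a range outside which only Aro0.5 98-8Y lay. Gad2, the GABA-synthesizing enzyme GAD65, had 33.5, 23.9, 24.5 and 29.1 CPM in Aro0.5 and 42.4, 45.2, 48.3 and 47.3 CPM in BPA0.5. The groups were narrow and did not overlap, with a log2 fold change of -0.69 (SE 0.11) and a DESeq2 adjusted p of 0.000604, the smallest of all genes. Male controls had 33.9 to 70.7 CPM of Gad2, so that all 4 Aro0.5 pups lay below the lowest control and all 4 BPA0.5 pups within the control range. The lowest CPF1 male (21.4 CPM) and the lowest males at 5 mg/kg of Aroclor (26.5 CPM) and bisphenol A (22.3 CPM) also lay below that control. Controls were not part of the fit. In some values both groups lay beyond these controls. Nos1 was at 8.02 to 13.8 CPM in the 8 low-dose pups and 14.3 to 23.7 CPM in the controls. Mitochondrially encoded genes summed to 82300 to 103000 and 63100 to 80800 CPM. A place outside the control range is thus not particular to 1 compound, and its cause was not tested.

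Calcr and Gad2, the genes with the smallest p, are shown with the sequence at their start together with Cyp1b1, an enzyme induced through the aryl hydrocarbon receptor that is described further below. The windows run from 250 bases before to 50 bases after the gene start (RefSeq, build GRCr8). Capitals mark the 5 bases that the aryl hydrocarbon receptor core recognizes (GCGTG, or CACGC on the other strand). They also mark the core of an estrogen response element (GGTCA, or TGACC). In Gad2, 2 matches of CACGC overlap by 1 base, within CACGCACGC.
Calcr (chr4:32691026-32691325, minus strand): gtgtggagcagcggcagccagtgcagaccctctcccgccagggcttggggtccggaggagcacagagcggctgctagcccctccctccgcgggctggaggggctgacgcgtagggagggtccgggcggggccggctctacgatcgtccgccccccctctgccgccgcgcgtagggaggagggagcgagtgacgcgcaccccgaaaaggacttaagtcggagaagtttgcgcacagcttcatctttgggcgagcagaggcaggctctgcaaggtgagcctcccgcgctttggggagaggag
Gad2 (chr17:89671468-89671767, plus strand): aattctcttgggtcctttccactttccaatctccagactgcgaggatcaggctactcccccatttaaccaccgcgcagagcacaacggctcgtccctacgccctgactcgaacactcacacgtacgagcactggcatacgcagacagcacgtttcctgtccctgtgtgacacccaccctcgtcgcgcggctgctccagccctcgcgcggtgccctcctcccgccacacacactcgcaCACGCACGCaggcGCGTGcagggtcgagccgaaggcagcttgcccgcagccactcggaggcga
Cyp1b1 (chr6:21094315-21094614, plus strand): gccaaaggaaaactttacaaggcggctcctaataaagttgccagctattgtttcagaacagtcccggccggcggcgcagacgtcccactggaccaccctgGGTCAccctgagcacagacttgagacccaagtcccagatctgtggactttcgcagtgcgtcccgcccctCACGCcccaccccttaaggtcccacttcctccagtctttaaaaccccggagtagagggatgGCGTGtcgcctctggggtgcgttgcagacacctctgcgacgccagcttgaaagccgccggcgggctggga
Calcr held neither motif, Gad2 held GCGTG 3 times and Cyp1b1 held GCGTG 2 times and GGTCA 1 time. Of the 20 named genes, 15 had a promoter entry, and 7 of these (46.7%) held GCGTG against 29.7% of 33469 promoters in the table. GGTCA was held by 4 of the 15 (26.7%) against 40.5% of all promoters. A match is a description of the letters and not a binding site.

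The other 5 genes that were lower in Aro0.5 were Gpr101, Irs4, Abcg3l3, Akap5 and Lgals5. Gpr101, an orphan G protein-coupled receptor, had 0.417, 0.322, 0.486 and 0.312 CPM in Aro0.5 and 0.989, 0.939, 1.23 and 1.28 CPM in BPA0.5, which corresponds to 9 to 33 counts per library. Its log2 fold change was -1.52 (SE 0.27) and the groups did not overlap. Irs4, an adaptor of insulin receptor signalling, had 1.02, 0.357, 0.81 and 0.531 CPM against 1.05, 2.44, 3.02 and 2.76 CPM. The highest Aro0.5 pup and the lowest BPA0.5 pup of Irs4 nearly met, with a log2 fold change of -1.75 (SE 0.37). Akap5, a postsynaptic scaffold that anchors protein kinase A, had 16.5, 10.9, 8.75 and 13.5 CPM against 23, 25, 26.9 and 17 CPM, a log2 fold change of -0.85 (SE 0.19). Its groups were also close at their edges. Abcg3l3, an ABC transporter of the G family (0.851 to 1.78 against 2.14 to 3.02 CPM), and Lgals5, a galectin (2.14 to 3.49 against 3.91 to 6.3 CPM), showed log2 fold changes of -1.15 (SE 0.25) and -0.93 (SE 0.21).

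Among the 13 genes that were higher in Aro0.5, Crym had the smallest p. Crym encodes mu-crystallin, which binds thyroid hormone in the cytosol. It had 225, 225, 274 and 269 CPM in Aro0.5 and 153, 149, 139 and 194 CPM in BPA0.5. Male controls had 102 to 297 CPM, a range that held all pups of both groups. No value of the groups overlapped, the log2 fold change was 0.68 (SE 0.12), and DESeq2 gave an adjusted p of 0.00376. Cdkn1c, an imprinted inhibitor of cyclin-dependent kinases, had 56.9, 49.3, 71.2 and 90.4 CPM against 34.8, 31.3, 27 and 44.4 CPM, a log2 fold change of 0.99 (SE 0.20). Vipr2, a receptor for vasoactive intestinal peptide, had 7.97, 6.47, 9.19 and 9.5 CPM against 3.78, 2.82, 3.63 and 5.64 CPM, a log2 fold change of 1.06 (SE 0.21). In both genes the groups were separate, and BPA0.5 75-1Y was the BPA0.5 pup closest to Aro0.5. The same pup was closest in Slc41a3, a magnesium transporter, with 27, 25.2, 31.4 and 36.4 CPM against 16.7, 16.4, 16.7 and 22.8 CPM and a log2 fold change of 0.75 (SE 0.15). Irx5, an Iroquois homeobox transcription factor, had 27, 14, 24 and 20 counts against 4, 1, 3 and 7 counts. In CPM this was 0.5 to 1.02 against 0.0939 to 0.272, and the fitted log2 fold change of 1.84 (SE 0.38) rests on these low counts.

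Lef1, a nuclear effector of Wnt signals, had 50.3, 37.2, 63.4 and 65.7 CPM against 28.5, 24.1, 17 and 39.2 CPM, a log2 fold change of 1.02 (SE 0.23), and the Wnt receptor Fzd10 had 22.1, 19.8, 25.9 and 30.8 CPM against 15, 12.7, 12.1 and 19.2 CPM, a log2 fold change of 0.77 (SE 0.18). The groups overlapped in Lef1 and not in Fzd10. Slc18a2, which loads monoamines into vesicles, showed 16.3 to 33.8 against 8.57 to 16.3 CPM with overlap at the edge and a log2 fold change of 1.13 (SE 0.25). Nrn1 (neuritin, a promoter of neurite growth) showed 64.5 to 131 against 31.2 to 66.7 CPM, a log2 fold change of 1.21 (SE 0.27). Cck, the cholecystokinin gene of a class of interneurons and of pyramidal cells, had 48.4, 49.3, 48.1 and 78.9 CPM against 32.2, 17.2, 26.3 and 39.2 CPM. Its groups were separate, with a log2 fold change of 0.99 (SE 0.23) and Aro0.5 98-8Y far above the other 3 of its group. Ptgds, the brain prostaglandin D synthase, showed 91.7 to 106 against 44.2 to 79.9 CPM (log2 fold change 0.73, SE 0.16). The remaining genes were Tp53i11 (213 to 241 against 145 to 204 CPM, log2 fold change 0.48, SE 0.11) and PCOLCE2, an enhancer of procollagen processing (1.25 to 1.62 against 0.282 to 0.855 CPM, log2 fold change 1.24, SE 0.29).

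**Figure D1:**
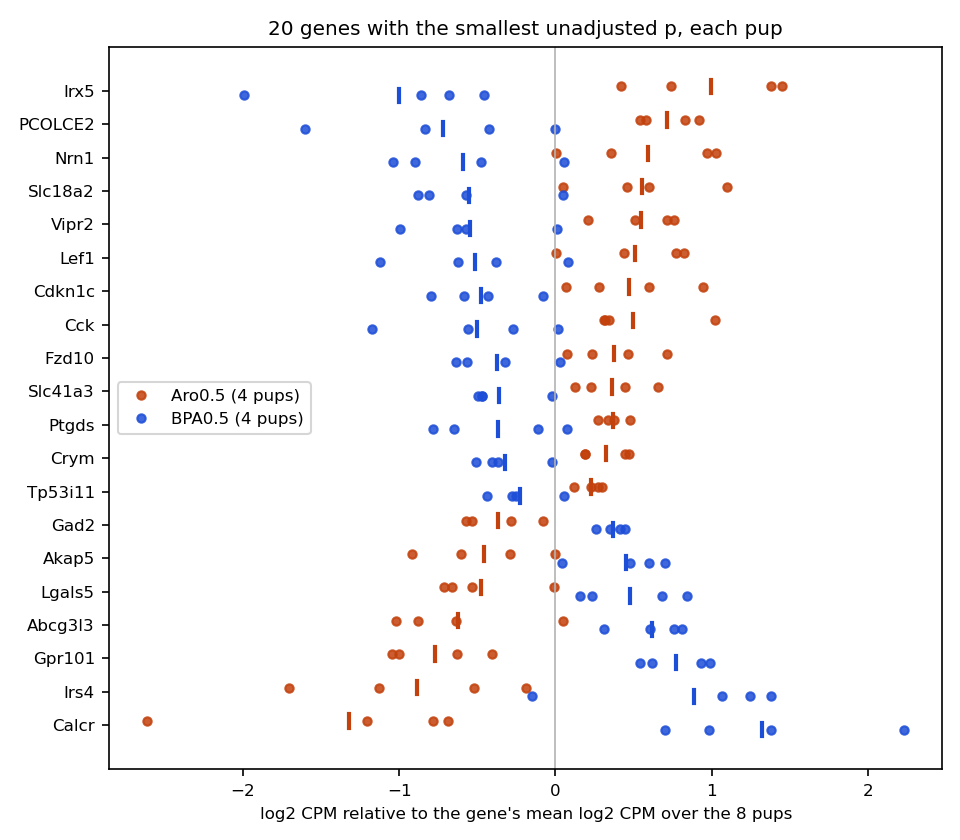
Log2 CPM of each pup relative to the mean of the gene over the 8 pups (horizontal axis) for the 20 named genes (vertical axis), with points for pups and vertical bars for group means. The colours are separate in 17 of the 20 genes, and Calcr and Irx5 spread most widely.

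Besides 16 of these genes, DESeq2 called 5 others, which are named here after their values were seen. They were Kcne4, Hsd11b2, Lmo1, LOC100909478 and LOC103691405. Hsd11b2, the enzyme that inactivates glucocorticoids, had 15.9, 11, 17.1 and 18.5 CPM in Aro0.5 and 7.68, 6.11, 6.1 and 12.2 CPM in BPA0.5. The groups overlapped at 106-3Y and 75-1Y, with an edgeR log2 fold change of 0.97 (SE 0.23) and a DESeq2 adjusted p of 0.0432. Kcne4, an accessory subunit of potassium channels (3.97 to 5.1 against 1.13 to 3.08 CPM), and Lmo1, a LIM domain cofactor of transcription (14.3 to 18.3 against 6.29 to 11.5 CPM), did not overlap. With no filter beyond 1 count, edgeR called Calcr and RT1-N2, and without BPA0.5 72-4Y it called RT1-N2 and RT1-T24-1. RT1-N2, a class I gene of the major histocompatibility complex, had 0 counts in all 4 Aro0.5 pups and in BPA0.5 72-4Y, but 129, 127 and 146 counts in the other 3 BPA0.5 pups. RT1-T24-1 of the same family had 6 to 12 counts in Aro0.5, 0 counts in BPA0.5 72-4Y and 39, 41 and 81 counts in the others. Members of this family are close copies of each other, and how the counting divided shared reads is not stated, so that these values are uncertain.

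Genes typical of neighbouring brain regions were compared as lists, and the plot of summed markers shows each pup. Of the 9 striatal markers, all 9 were lower in Aro0.5 at an unadjusted p under 0.05, with a median log2 fold change of -1.05, against 4.37% of all genes tested and a median of -0.0029 over all genes. None reached an adjusted p under 0.05 in edgeR. Their summed level was 567, 431, 323 and 225 CPM in Aro0.5 and 767, 749, 1340 and 414 CPM in BPA0.5. The highest Aro0.5 pup was above the lowest BPA0.5 pup, and BPA0.5 73-4Y was highest. The dopamine receptor Drd1 had 36.5, 26.2, 17.9 and 12.2 CPM against 50.9, 45.8, 73.9 and 25.2 CPM, a log2 fold change of -1.05 (SE 0.33). Drd1, Ppp1r1b (DARPP-32, 32.4 to 108 against 61.5 to 345 CPM) and the enkephalin gene Penk (26.4 to 100 against 65 to 293 CPM) all overlapped between groups. Without BPA0.5 73-4Y, 3 of the 9 were lower at an unadjusted p under 0.05, against 2011 of all 16376 genes in that fit (12.3%), and the median was -0.66. The mean log2 difference of the sums was -1.04 with all pups and -0.76 without this pup. Controls of the same library set had a striatal sum of 270 to 1040 CPM.

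Thalamus markers went the other way. Of 10 tested, 7 were higher in Aro0.5 at an unadjusted p under 0.05 (4.99% of all genes) and 0 lower, with a median log2 fold change of 0.48. Their summed level was 1260, 900, 1500 and 1440 CPM in Aro0.5 and 930, 807, 696 and 1120 CPM in BPA0.5, with overlap, and 629 to 1500 CPM in controls. Tcf7l2, a Wnt effector that is strong in thalamic neurons, had 552, 357, 632 and 587 CPM against 377, 306, 228 and 466 CPM, a log2 fold change of 0.67 (SE 0.21). Slc17a6, the vesicular glutamate transporter of subcortical neurons, had 280, 201, 342 and 360 CPM against 220, 178, 128 and 266 CPM, a log2 fold change of 0.62 (SE 0.22). The transcription factor Lhx9 (65.9 to 96.6 against 43.7 to 75.7 CPM) and Ramp3, an accessory protein of the calcitonin receptor family (10.8 to 17.7 against 8.26 to 11 CPM), overlapped. Without BPA0.5 73-4Y, 5 of 10 thalamus markers were higher at an unadjusted p under 0.05, against 2271 of all 16376 genes (13.9%). With all pups, neocortical layer markers were lower at that threshold in 3 of 11 (Bcl11b, Tbr1 and Etv1), against 4.37% of all genes, and again in 3 of 11 without BPA0.5 73-4Y, against 12.3%. They had sums of 532 to 759 against 632 to 872 CPM. Bcl11b, which marks both deep cortical layers and striatal neurons, had 102, 93.3, 63.9 and 56.8 CPM against 148, 170, 162 and 77.3 CPM. Of 11 hippocampal subfield markers, Man1a1 and Calb1 were lower and Bok higher at an unadjusted p under 0.05 with all pups. The same counts (2 and 1) were found without BPA0.5 73-4Y. The shares of all genes were 4.37% lower and 4.99% higher with all pups, and 12.3% and 13.9% without this pup. Subfield sums were 597 to 792 against 656 to 825 CPM. The part of these marker levels in the differences of the 20 named genes was not tested.

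**Figure D2:**
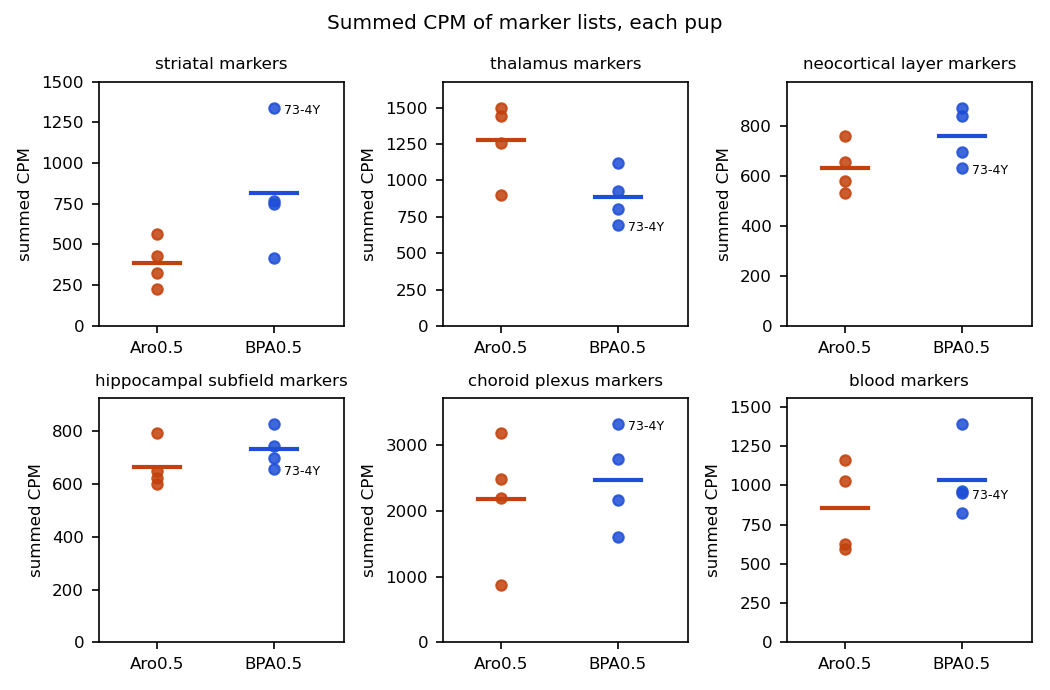
Summed CPM (vertical axis) of 6 marker lists in each pup of Aro0.5 and BPA0.5, with horizontal bars for group means and pup 73-4Y labelled. Striatal sums are lower and thalamus sums higher in most Aro0.5 pups, and all 6 lists overlap between groups.

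Markers of other cell types are set against 4.37% of all genes lower and 4.99% higher at an unadjusted p under 0.05. Of all 16203 genes, 8182 had negative and 8021 positive log2 fold changes. Choroid plexus markers summed to 3180, 2480, 867 and 2190 CPM in Aro0.5 and 1610, 2790, 3320 and 2170 CPM in BPA0.5, and 1 of 9 tested (Kcnj13) was lower at an unadjusted p under 0.05, while all 9 had negative log2 fold changes (median -0.38). Otx2 was at 0 counts in all 8 pups. Of 5 blood genes tested, 3 (Hbb, Alas2 and Slc4a1) were lower in Aro0.5 and all 5 had negative log2 fold changes (median -0.46), with sums of 596 to 1160 against 825 to 1390 CPM. Of 9 meningeal and mural genes, 2 were higher (Slc6a13 and Col1a1) and all 9 had positive log2 fold changes (median 0.26), with sums of 211 to 285 against 183 to 239 CPM. Among astrocyte markers 1 was higher (Aldh1l1) and 2 lower (Slc1a3 and Gja1) of 12, among endothelial markers 1 of 11 was higher (Cldn5), and of 13 oligodendrocyte lineage markers none was at an unadjusted p under 0.05. Without BPA0.5 73-4Y, when 12.3% of all genes were lower and 13.9% higher, 1 choroid plexus and 3 blood genes were lower and 3 meningeal and mural genes higher. Astrocyte and oligodendrocyte lineage markers then had 1 higher and 1 lower each, and endothelial markers 2 higher and 1 lower.

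Among interneuron genes, 6 of 17 tested were lower (4.37% of all genes) and 2 higher (4.99% of all genes) in Aro0.5 at an unadjusted p under 0.05, with a median log2 fold change of -0.25, and in 4 the groups did not overlap (3.44% of all genes). Without BPA0.5 73-4Y, 5 of 17 were lower and 2 higher, against 12.3% and 13.9% of all genes, with a median of -0.18. Those lower with all pups were Gad2, Gad1, Sp8, Dlx1, Dlx5 and Dlx6, and those higher were Cck and Calb2. Gad1, the other GABA-synthesizing enzyme (GAD67), had 157, 136, 157 and 151 CPM against 170, 198, 243 and 177 CPM, without overlap and with a log2 fold change of -0.36 (SE 0.12). The homeobox gene Dlx1, which directs interneuron development, had 48.5, 47.3, 38.1 and 34.6 CPM against 65.1, 73.4, 68.8 and 47.1 CPM, a log2 fold change of -0.56 (SE 0.15). Sp8, a zinc finger factor of interneurons from the caudal eminence, had 4.16 to 6.49 against 6.49 to 11.6 CPM, touching at the edge, and a log2 fold change of -0.77 (SE 0.20). Gad1, Gad2 and the Dlx genes are also expressed by striatal neurons, whose markers differed in the same direction, and the part of these cells was not tested. The peptide genes and calcium-binding proteins of interneuron classes gave no common direction. Pvalb had 11.8, 7.72, 10.9 and 16.7 CPM against 7.51, 5.64, 8.36 and 12.1 CPM (log2 fold change 0.50, SE 0.26), Sst 34.6 to 38.1 against 23.2 to 58.3 CPM (-0.07, SE 0.21) and Nos1, neuronal nitric oxide synthase, 8.02 to 12.6 against 10.4 to 13.8 CPM (-0.16, SE 0.16). All 3 overlapped. Npy was at 0 counts in every pup, and also in the control, CPF1, Aro5 and BPA5 males. The paper lists expression ratios of NPY in male hippocampus, so that these counts do not show the gene to be silent. The cause was not tested.

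The Pvalb/Nos1 ratio, of markers of interneuron classes, was 1.15, 0.614, 1.36 and 1.81 in Aro0.5 and 0.69, 0.541, 0.792 and 0.874 in BPA0.5. The means were 1.23 ± 0.497 and 0.724 ± 0.144 (SD, n = 4 each), and the difference of 0.69 on the log2 scale gave p = 0.114 in a 2-sided exact permutation test. The smallest p this test can give with 4 against 4 pups is 0.0286. Without Aro0.5 106-3Y, the lowest of its group, the log2 difference was 0.99 and the exact permutation p 0.0286, and without any other pup p stayed above 0.05. The Slc12a5/Slc12a2 ratio, which compares chloride export with import, was 2.8, 3.16, 4.78 and 4.79 in Aro0.5 and 2.25, 1.37, 3.68 and 3.05 in BPA0.5. With means of 3.88 ± 1.05 and 2.59 ± 1 (SD, n = 4 each) and a log2 difference of 0.64, the exact permutation p was 0.143. With all 8 pups, neither difference passed the threshold of the exact test. Slc12a5 itself had 199, 173, 233 and 268 CPM against 162, 123, 199 and 216 CPM (log2 fold change 0.35, SE 0.18) and Slc12a2 71.1, 54.7, 48.8 and 56 CPM against 72.1, 89.6, 54.2 and 70.7 CPM (-0.28, SE 0.14). Of the 10 chloride cotransporters and kinases, 0 were at an unadjusted p under 0.05, but without BPA0.5 73-4Y 2 were higher and 4 lower, against 13.9% and 12.3% of all genes.

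Of 14 GABA-A receptor subunits tested, 2 were lower at an unadjusted p under 0.05 (4.37% of all genes) and 12 had a negative log2 fold change (8182 of all 16203 genes). Without BPA0.5 73-4Y, 7 of 15 were lower, against 12.3% of all genes. Gabrb2, a main synaptic subunit, had 121, 120, 117 and 107 CPM against 181, 168, 123 and 152 CPM, without overlap and with a log2 fold change of -0.38 (SE 0.11). Gabre was low, at 0.0937 to 0.759 against 0.524 to 2.26 CPM. Glutamate receptor subunits were divided, with 3 of 21 lower (Grm3, Gria3 and Grm5) and 1 higher (Grm2), the latter close to the 4.99% of all genes, and 6 lower and 2 higher without BPA0.5 73-4Y, against 12.3% and 13.9%. Grm3 had 49.9, 46.6, 42.4 and 42.6 CPM against 71.2, 69.8, 43.8 and 67.5 CPM, so that only BPA0.5 73-4Y reached into the Aro0.5 range (log2 fold change -0.44, SE 0.13). Grm2, the related inhibitory metabotropic receptor, showed 28.5 to 50.7 against 17.7 to 34 CPM (0.58, SE 0.20). Presynaptic genes were higher in 3 of 21 (Stx1a, Rab3a and Syp) and lower in 0, with a median of 0.14, and postsynaptic scaffolds were higher in 3 of 18 (Homer2, Dlgap3 and Shank1) and lower in 1 (Dlg2), against 4.99% of all genes higher and 4.37% lower. Without BPA0.5 73-4Y, presynaptic genes were higher in 5 and lower in 2, and postsynaptic scaffolds higher in 2 and lower in 3. Of all genes, 13.9% were then higher and 12.3% lower. Among neurotrophin and growth factor genes, the glial cell line-derived factor Gdnf (1.86 to 2.43 against 2.85 to 4.05 CPM, log2 fold change -0.57, SE 0.18) and the neurotrophin-3 receptor Ntrk3 (71.2 to 74.2 against 77.3 to 91.7 CPM, -0.20, SE 0.09) were lower at an unadjusted p under 0.05 (4.37% of all genes) and did not overlap (3.44% of all genes). Of the 15 tested in this list, 7 had positive and 8 negative log2 fold changes (median -0.018). Bdnf had 10.6, 7.43, 12.2 and 13.6 CPM against 8.21, 7.33, 5.83 and 10.9 CPM, with overlap and a log2 fold change of 0.46 (SE 0.22). Immediate early genes included 2 of 16 that were lower, Npas4 and Egr2, against 4.37% of all genes, and 0 without BPA0.5 73-4Y, against 12.3%. Their summed CPM was 216 to 227 against 193 to 242.

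The thyroid hormone genes were listed because Aroclor is known to lower the hormone. Of 16 tested, 1 was higher (Crym) and 1 lower (Rxrg) at an unadjusted p under 0.05, with a median log2 fold change of 0.15. These counts are close to the shares of all genes (4.99% and 4.37%), and without BPA0.5 73-4Y they were 5 higher and 2 lower, against 13.9% and 12.3% of all genes. Rxrg, a retinoid X receptor that is also strong in the striatum, had 34.4, 17, 10.9 and 8.81 CPM against 38, 47.4, 83.2 and 14.5 CPM, a log2 fold change of -1.35 (SE 0.48). BPA0.5 73-4Y was highest in Rxrg as in the striatal sum, and Aro0.5 98-8Y lowest in both. The receptors were at 699 to 729 against 503 to 713 CPM for Thra (log2 fold change 0.22, SE 0.11) and 17.7 to 24 against 15.9 to 27.5 CPM for Thrb (-0.21, SE 0.17). Klf9 and Hr, direct targets of the hormone receptor, showed 8.87 to 18.4 against 12.9 to 19.5 CPM (-0.27, SE 0.20) and 19.1 to 42.8 against 22.9 to 30.6 CPM (0.14, SE 0.20). Receptors and targets thus overlapped between groups, with 95% intervals that include 0.

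Of 12 aryl hydrocarbon receptor genes listed, 9 had enough counts for the test and 0 were at an unadjusted p under 0.05, or 1 (higher) without BPA0.5 73-4Y, against 13.9% of all genes. Ahr, the receptor, had 2.39, 1.11, 1.7 and 1.72 CPM in Aro0.5 and 2.1, 1.5, 0.48 and 2.64 CPM in BPA0.5, with a log2 fold change of 0.01 whose sign turned in limma-voom and without 105-5Y, 72-4Y or 73-4Y. Cyp1b1 had 3.11, 2.93, 1.46 and 3.44 CPM against 3.08, 4.51, 1.03 and 2.99 CPM, with a log2 fold change of -0.02 and a 95% interval of -0.80 to 0.75. Its direction turned when 94-3Y, 69-4Y, 72-4Y or 75-1Y was left out or the libraries were thinned. The values of the groups were interleaved, and the interval still allows differences of more than 1.5-fold in either direction. Cyp1a1, the classical target of the receptor, had 6, 2, 1 and 1 counts against 2, 1, 3 and 3 counts and was too low for the test. Nqo1 and Tiparp, further targets, showed 14.4 to 17.5 against 15 to 19.4 CPM and 10.9 to 14.7 against 12.4 to 16.8 CPM. Of 7 xenobiotic receptors and transporters tested, none was at an unadjusted p under 0.05 with all pups. Without BPA0.5 73-4Y, 1 was higher and 1 lower, against 13.9% and 12.3% of all genes. Cyp2b1 and Cyp2b2 were at 0 counts in every pup.

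Of 13 receptors and enzymes of sex steroids tested, 1 was higher in Aro0.5 at an unadjusted p under 0.05 (4.99% of all genes), Esrrb with 0.465 to 1.62 against 0 to 0.855 CPM. Without BPA0.5 73-4Y 1 was higher and 3 lower, against 13.9% and 12.3% of all genes. Esr1, the estrogen receptor alpha, had 3.64, 5.4, 3.97 and 3.47 CPM against 5.82, 6.29, 4.32 and 6.07 CPM. Of the BPA0.5 pups only 73-4Y fell into the Aro0.5 range, and the log2 fold change was -0.41 (SE 0.19) with a 95% interval of -0.83 to 0.0027. By real time RT PCR, the paper reported Esr1 mRNA below controls in males at the lower doses. Esrrg, the estrogen-related receptor gamma, had 54.4, 42, 45.8 and 45.5 CPM against 53.8, 50.5, 45.7 and 63.3 CPM (-0.15, SE 0.11). Among glucocorticoid receptor genes, Cdkn1a was higher (18.3 to 31 against 14.2 to 19.3 CPM, 0.44, SE 0.17) and the other 10 of 11 were not at an unadjusted p under 0.05, while 4 were higher and 1 lower without BPA0.5 73-4Y. The shares of all genes were 4.99% higher and 4.37% lower with all pups, and 13.9% higher and 12.3% lower without this pup. Of 15 calcium release genes, 2 were lower (Stim2 and Ryr3, 4.37% of all genes) and 1 higher (Atp2a3, 4.99% of all genes), and 3 each way without BPA0.5 73-4Y, again against 13.9% higher and 12.3% lower. Ryr3, a ryanodine receptor of the hippocampus, had 49, 50.4, 44.6 and 40.2 CPM against 60.8, 64.7, 49.3 and 51.6 CPM, a log2 fold change of -0.26 (SE 0.11). Ryr2 (45.3 to 62.1 against 41.9 to 70 CPM, -0.20, SE 0.16) and Ryr1 (5.54 to 9.53 against 3.38 to 7.5 CPM, 0.43, SE 0.23) overlapped more widely.

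The study named 18 Sox, Pou and signalling genes from its high-dose males, which are not among the 8 pups. Of these genes, 3 were lower (Erbb4, Fzd3 and Gli3) and 1 higher (Tcf7l2) at an unadjusted p under 0.05. A negative log2 fold change was found in 15 (8182 of all 16203 genes), with a median of -0.22. Erbb4, the neuregulin receptor of interneurons, had 3.11, 2.11, 2.07 and 1.72 CPM against 3.49, 4.42, 2.54 and 4.04 CPM (log2 fold change -0.66, SE 0.22). Gli3, a transcription factor of Hedgehog signalling, had 2.92, 2.54, 1.98 and 2.09 CPM against 3.43, 4.42, 2.61 and 3.5 CPM (-0.51, SE 0.20). In both genes BPA0.5 73-4Y was the BPA0.5 pup that overlapped with Aro0.5. The same was true of Sox6, with 12.8, 10.6, 7.66 and 10.6 CPM against 15.6, 15.4, 8.84 and 15.7 CPM (-0.38, SE 0.19). Sox11 showed 4.58 to 8.04 against 4.8 to 11 CPM (-0.30, SE 0.24), and Pou2f1 3.85 to 6.94 against 3.5 to 10.1 CPM (-0.47, SE 0.28). The paper also measured Sox6, Sox11 and Pou2f1 by real time RT PCR in males without RNA-seq. Against controls, it reported them raised by bisphenol A at the lower dose, but not by Aroclor. Pou2f2 (0.16, SE 0.22), Pou3f2 (-0.29, SE 0.17) and Nrg1 (-0.18, SE 0.17) also had intervals that include 0. Without BPA0.5 73-4Y, 9 of the 18 were lower at an unadjusted p under 0.05, with a median of -0.32, and of all genes 12.3% were lower in that fit, against 4.37% with all pups.

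**Figure D3:**
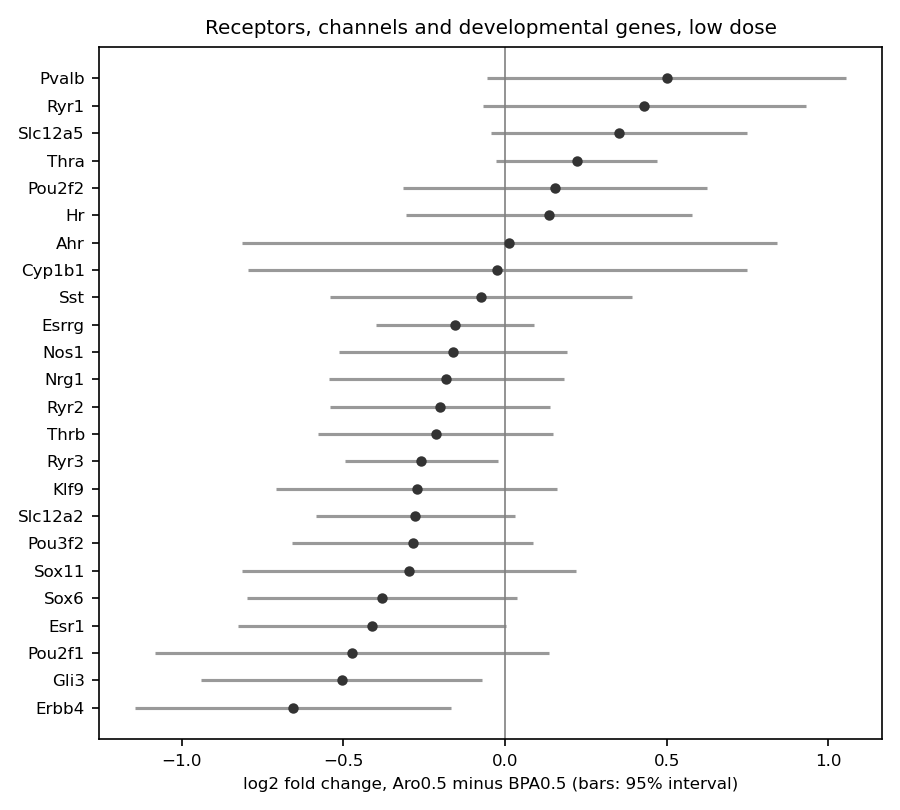
Log2 fold change (horizontal axis, Aro0.5 minus BPA0.5) with 95% intervals of 24 receptor, channel, interneuron and developmental genes (vertical axis) chosen for their role in the study or as targets of the compounds. Only the intervals of Erbb4, Gli3 and Ryr3 lie apart from 0, before any adjustment.

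Genes of dividing cells were lower in 5 of 20 (Top2a, Cenpf, Ccna2, Bub1 and Aurkb) and higher in 0, with a median of -0.17, against 4.37% lower of all genes. Without BPA0.5 73-4Y they were lower in 4 of 20, against 12.3% of all genes. Top2a, a topoisomerase of the cell cycle, had 33.8, 34.7, 28.5 and 30.3 CPM against 45.5, 42.9, 38 and 35.2 CPM, without overlap (log2 fold change -0.31, SE 0.11). The marker of newborn neurons Dcx had 395 to 850 against 484 to 1030 CPM and a log2 fold change of -0.29 (SE 0.24). Among progenitor and newborn neuron genes 2 of 13 were lower (Eomes and Tbr1) and 1 higher (Neurod1). Of 24 splicing factors, 2 were lower (Srsf10 and Hnrnpm). Of all genes, 4.37% were lower and 4.99% higher. Without BPA0.5 73-4Y, 2 of 13 and 7 of 24 were lower and 0 higher, against 12.3% and 13.9% of all genes. Cholesterol synthesis genes were higher in 2 of 20, Mvk (38.7, 37.7, 40.9 and 47.4 against 21.9, 17.9, 36.5 and 31.8 CPM, 0.63, SE 0.20) and Mvd, against 4.99% of all genes, and again in 2 of 20 without BPA0.5 73-4Y, against 13.9%. Of 15 DNA methylation genes, 1 was lower (Tet2) and 1 higher with all pups, against 4.37% and 4.99% of all genes. Without BPA0.5 73-4Y, 3 were lower and 2 higher, against 12.3% and 13.9%. Gadd45b was higher, with 1.67, 1.5, 2.43 and 2.69 CPM against 1.28, 1.13, 1.1 and 1.36 CPM (0.79, SE 0.25). Circadian genes were lower in 2 of 15 (Nr1d2 and Npas2), against 4.37% of all genes. Without BPA0.5 73-4Y they were lower in 3 of 15, against 12.3%. Dissection times of the groups overlapped. None of 16 Nrf2 antioxidant genes, 13 heat shock genes and 13 genes of hypoxia and glycolysis was at an unadjusted p under 0.05. Without BPA0.5 73-4Y, 3 Nrf2 genes were higher and 3 lower, 1 heat shock gene was higher, and 3 genes of hypoxia and glycolysis were higher and 1 lower. Of all genes, 13.9% were then higher and 12.3% lower. With all pups, there was also none among 70 ribosomal protein genes and 75 nuclear genes of oxidative phosphorylation. Of these, 48 and 69 had positive log2 fold changes (8021 of all 16203 genes). Without that pup, however, 31 of 70 and 30 of 76 were higher in Aro0.5 at that threshold, with medians of 0.16 and 0.17, while 13.9% of all genes were higher in that fit.

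The same compounds were also given at 5 mg/kg, to dams of other pups (Aro5, 6 pups, and BPA5, 7 pups). Comparing the doses asks whether the difference between the compounds was the same at both. The 13 high-dose libraries carry names ending in a lower-case y, so that dose and set of library names cannot be told apart. In a joint edgeR fit of 21 pups with Benjamini-Hochberg adjustment, Aro5 against BPA5 gave 0 of 17006 genes past the adjusted threshold (0%), while 719 (4.23%) were at an unadjusted p under 0.05. The interaction of compound and dose gave 0 genes (0%) with an adjusted p under 0.05, a smallest adjusted p of 0.354 in edgeR, and 2365 genes (13.9%) with an unadjusted p under 0.05. DESeq2 also gave 0 for the interaction, with 2512 at an unadjusted p under 0.05. Aro5 120-1y and 120-2y carry the same number before the hyphen, read as the dam, and without 120-2y the unadjusted count in edgeR was 1554. It was 3579 without Aro5 108-1y, which was dissected at 15.45 h while the other 12 high-dose pups were dissected between 9.45 and 13.20 h, and 3949 without BPA0.5 73-4Y, and 1518, 1324, 1383 and 1180 without Aro0.5 94-3Y, Aro0.5 98-8Y, BPA0.5 69-4Y and BPA0.5 72-4Y. Most genes had opposite signs at the doses. Of the 20 named genes 3 (15%) had the same sign, of the 1516 genes at an unadjusted p under 0.05 219 (14.4%), and of all 16203 genes 4353 (26.9%).

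All 13 named genes that were higher in Aro0.5 had a negative log2 fold change of Aro5 against BPA5. Crym had -0.15 (SE 0.24), Cdkn1c -0.49 (SE 0.30) and Irx5 -1.75 (SE 0.63). Of those lower in Aro0.5, Gad2 had 0.45 (SE 0.24), Akap5 0.65 (SE 0.26), Gpr101 0.37 (SE 0.38) and Calcr 0.13 (SE 0.60). Irs4, Abcg3l3 and Lgals5 kept their sign. At the high dose itself, only Irx5 and Akap5 of the 20 were at an unadjusted p under 0.05, both against their low-dose direction. In the test of the interaction, 15 of the 20 were at an unadjusted p under 0.05, against 13.9% of all genes, led by Slc41a3 (1.01, SE 0.27), Akap5 (-1.52, SE 0.42) and Fzd10 (1.17, SE 0.33), and none passed adjustment in edgeR. Since the 20 were chosen by their low-dose p, which enters the interaction, this count is a description only. The striatal list had a median log2 fold change of 0.73 at 5 mg/kg, with 3 of 9 higher at an unadjusted p under 0.05 (2.16% of all genes), 0 lower, and sums of 282 to 1370 CPM in Aro5 and 220 to 626 CPM in BPA5. The thalamus list had a median of -0.36, with 0 of 10 lower and 1 higher (Prkcd, 0.23, SE 0.11) at that threshold and sums of 234 to 1270 and 438 to 1360 CPM. The part of these markers in the opposite signs was not tested.

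**Figure D4:**
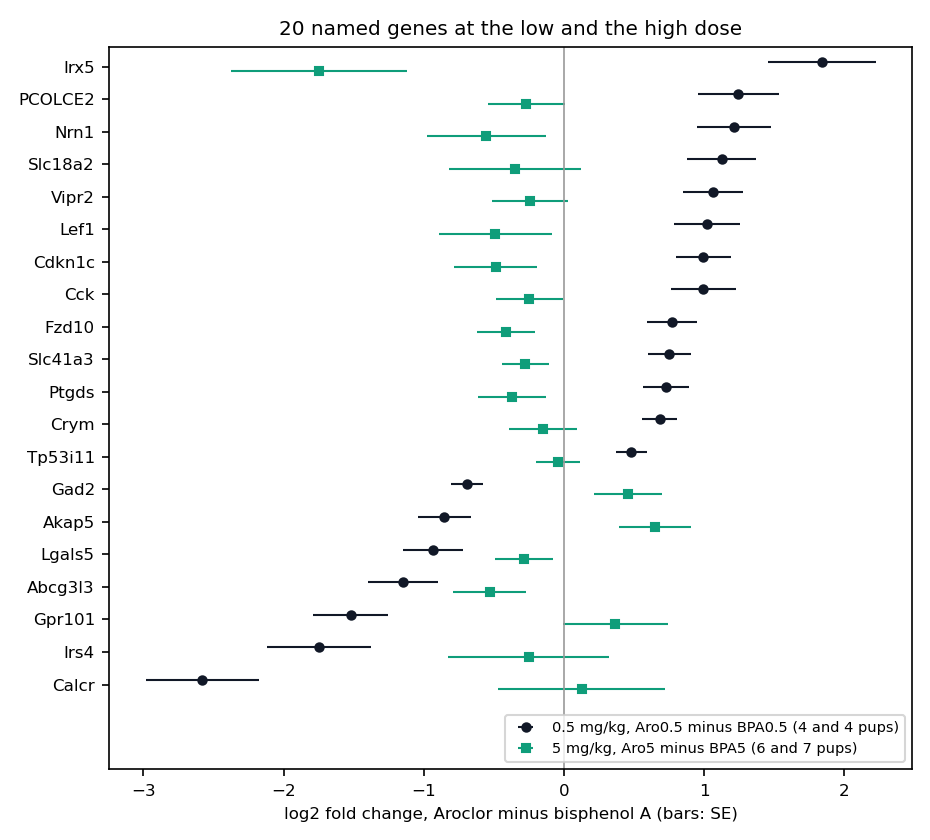
Log2 fold change of Aroclor minus bisphenol A with SE bars (horizontal axis) of the 20 named genes (vertical axis) at 0.5 mg/kg (circles) and 5 mg/kg (squares). Only Irs4, Abcg3l3 and Lgals5 have the same sign at both doses.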

How the data were processed

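RNA of 8 male pups (Aro0.5 and BPA0.5, 4 each) was analysed, with the groups taken from the sample labels. The authors prepared stranded mRNA libraries, used STAR for alignment (rat build Rnor_6.0) and featureCounts to obtain gene counts. They deposited raw counts of 37777 gene entries per library. Versions, strand setting and treatment of reads that match several places are not given in the sources used here, so that paralogs and overlapping genes are uncertain. The submitters' processing notes also name kallisto. Gene names come from the gene table that the authors deposited with the counts. Its other columns were not used. Some genes are not reported here. The labels name a NovaSeq and the methods a HiSeq instrument.

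Counts were compared in edgeR 4.0.16 (R 4.3.3) after TMM scaling and filtering by filterByExpr. Its quasi-likelihood test was adjusted by Benjamini-Hochberg across every tested gene (threshold 0.05). SE is the log2 fold change divided by the square root of F. CPM are counts divided by the library total and multiplied by 1000000. Ratios were compared by exact permutation tests of log2 ratios. The fits were tested on simulated data. DESeq2 1.42.0, limma-voom with sample quality weights (limma 3.58.1) and other filters, scalings and samples were alternatives. No pair of libraries within a group agreed within sampling noise (mean chi-square per gene 7.78 to 33.6). Named genes were those with the smallest unadjusted p (20, without symbols that begin with LOC, RGD or AABR), up to 4 of each gene list and 25 fixed genes. The members and lists were chosen with earlier results of these data known. Where several entries share a symbol, lists took the entry with the most counts. Promoter windows are from the RefSeq table of build GRCr8, whose coordinates were not joined to the counts. Figures were drawn with matplotlib 3.10.9. With dams read from the pup names, each low-dose p-value measures the spread between pups of different dams, whereas 2 Aro5 pups of the joint fit share a dam.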

Additional observations from a re-analysis of the deposited data

Results flagged for a closer look

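Of 100 groups of 4 values tested (the named genes and 5 marker sums), 6 held a pup far from the other 3, and chance alone gives about 5. Slc41a3 of BPA0.5 75-1Y was at 22.8 CPM, with the others at 16.4 to 16.7. Cck of Aro0.5 98-8Y was at 78.9 CPM, with the others at 48.1 to 49.3. Sox6 of BPA0.5 73-4Y was at 8.84 CPM (others 15.4 to 15.7) and Ryr2 of the same pup at 41.9 CPM (others 66.1 to 70). Nos1 of BPA0.5 75-1Y was at 13.8 CPM (others 10.4 to 10.9), and Hr of BPA0.5 72-4Y at 22.9 CPM (others 29.9 to 30.6). No cause was tested.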

How the results depend on the processing

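The count of genes with an adjusted p under 0.05 was 0 in edgeR and became 21 with DESeq2 and 2 with no filter beyond 1 count. With each pup left out in turn it was 0 to 2. It stayed at 0 with limma-voom and sample quality weights, with 4680 genes at an unadjusted p under 0.05. It also stayed at 0 with DESeq2's size factors (1537 at that p) and at least 10 counts in every pup (1335). The same held with time of dissection as a covariate (1349) and libraries thinned to 1 depth (1423). CPF1 males in the fit (1995), whose dams were injected with chlorpyrifos at 1 mg/kg, also left it at 0. The interaction gave 0 genes in all alternatives run, with 1180 to 3949 at an unadjusted p under 0.05. The 20 named genes, which were chosen by their p in these same pups, kept their direction wherever they were tested. With 1 pup left out, the log2 difference was 0.361 to 0.837 for Slc12a5/Slc12a2 and 0.469 to 0.989 for Pvalb/Nos1, the latter without Aro0.5 106-3Y. Sst turned to 0.113 and Ahr to -0.216 with limma-voom, and Cyp1b1 to 0.17 with thinned libraries. With 1 pup left out, Sst was at 0.202 without BPA0.5 73-4Y and Hr at -0.0837 without Aro0.5 98-8Y. Ahr was at -0.148, -0.0384 and -0.277 without 105-5Y, 72-4Y and 73-4Y, and Cyp1b1 at 0.179, 0.00474, 0.216 and 0.00612 without 94-3Y, 69-4Y, 72-4Y and 75-1Y. Other fixed genes moved in size without a turn of sign. Sox11 ranged from -0.465 to -0.104, Pou2f2 from 0.0736 to 0.371 and Pvalb from 0.274 to 0.745 when 1 pup was left out. The cause was not tested. The counts for DESeq2 with a pup left out, for unadjusted p and for lists without BPA0.5 73-4Y were chosen after seeing the data. Depth differed between the groups, and genes at a few counts, such as Cyp1a1, could not be compared.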
